A study of Mus musculus with 11 samples.

Results

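The genes described here are 9 interferon-induced genes, Irf7, Isg15, Ifit1, Ifit3, Oas1a, Bst2, Ifi207, Ifi27 and Ifi27l2a, measured by RNA-Seq in the whole eye of wild-type (WT) and miR-211-/- (KO) mice. They were named as a list, each symbol was matched to 1 Ensembl gene identifier, and all 9 were found among the 38393 genes of the count tables. All 9 passed the filter on low expression, which required at least 1 CPM (read pairs of a gene scaled to a common library total) in at least 5 libraries and left 15767 genes. The list was drawn up with the levels of these genes in WT and KO libraries in view, so the differences of the 9 genes between genotypes and between library series are given as descriptions and without a test.

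The study asked which transcripts change in the eye when the precursor of miR-211, a microRNA encoded within the Trpm1 gene, is deleted from the germ line. RNA came from animals of the C57BL/6 background by the labels (C57Bl/6J by the study's methods), 1 to 2 months old, and from the eye without lens and cornea, which leaves retina, retinal pigment epithelium (RPE), choroid, sclera and ciliary body. There were 5 libraries of WT animals with an intact locus and 6 of KO animals, which lack the precursor in every tissue, 1 library per animal and no treatment. By the study's methods all KO animals were male and the WT animals were of both sexes, and the sources used here do not say which WT library came from which sex.

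Interferons are secreted proteins that cells release when they sense viral or displaced nucleic acid. They bind receptors on neighbouring cells, the kinases Jak1 and Tyk2 pass the signal on, and a complex that holds Stat2 and Irf9 binds the interferon-stimulated response element (ISRE) in front of induced genes. Many induced genes encode antiviral proteins, and many cells keep a low basal level of them without infection.

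Between 20282241 and 36317673 read pairs were assigned to genes in each library. Column names in the study's supplementary table part the libraries into a series named by mouse number (WT replicates 1 and 2, KO replicates 1 to 3) and a series named by age (WT replicates 3 to 5, KO replicates 4 to 6). What was done differently in these series is not stated in the sources used here. Mir211 had 0 reads in all 11 libraries, WT included, so that the counts could not check the deletion. Its host gene Trpm1 was at 430 ± 67.2 CPM in WT (SD, n = 5) and 433 ± 19.1 in KO (SD, n = 6). Xist, the transcript that silences an X chromosome in females, was at 796 CPM or more in WT replicates 1, 3 and 5 and at 1.29 or less in the other 8 libraries. Genotype and sex cannot be told apart fully in this design, and values without these 3 WT libraries are given for the members below. Rod markers summed to 25142 to 39994 CPM and RPE markers to 1824 to 2315 CPM, while keratins and other markers of cornea and conjunctiva were also read, at 1196 to 8886 CPM. That last sum did not fully follow the series. WT replicate 4 was at 7418 CPM, while the other libraries of the age series were at 1196 to 2425 CPM. WT replicate 1 was at 3274 CPM, and the other libraries of the mouse-number series were at 7421 to 8886 CPM.

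Per transcript length, the 9 genes covered a wide range of basal levels. Ifi27 was the most abundant, with a median of 39.5 FPKM (fragments scaled by effective gene length and by library) over the 11 libraries and a range of 30.1 to 74.2. Ifit3 (median 18.9 FPKM), Bst2 (17.3) and Ifi27l2a (12.4) came next. Irf7 (9.45), Isg15 (7.83) and Ifit1 (2.95) were lower, and Oas1a (1.36) and Ifi207 (0.98) were the lowest. Only the ranges of Ifi27 and Ifit3 (14 to 24.5 FPKM) did not overlap, and every other pair of neighbours in this order overlapped across libraries. Each gene was read in every library, the lowest value being 0.983 CPM for Ifi207 in KO replicate 5.

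Most members with a promoter window share the ISRE core. Interferon-induced genes were listed by name, and the ISRE lies in front of such genes, so its presence is not independent evidence. The core was searched as GAAA, any 2 bases and GAAA again. Both strands of the 300 bases around each RefSeq transcript start were read (GRCm38.p6, 250 bases upstream and 50 downstream). The core was found in 3.44% of 32851 promoter windows of all genes, and 3.99% of the 27025 genes with a window had it. It was found in 6 of the 7 members that have such a window (Isg15, Ifit1, Ifit3, Oas1a, Bst2 and Ifi207), and Irf7 had no match. No window was given for Ifi27 and Ifi27l2a. The 160 bases just upstream of each start are printed 5′ to 3′ on the strand of the gene because the position and the number of cores differ between genes that varied together, and capitals mark the ISRE core, which reads TTTC, 2 bases and TTTC where it lies on the opposite strand. They are Isg15 (chr4:156200819-156200978, minus strand), Ifit1 (chr19:34640729-34640888, plus), Ifit3 (chr19:34583369-34583528, plus), Oas1a (chr5:120907526-120907685, minus), Bst2 (chr8:71537473-71537632, minus), Ifi207 (chr1:173741810-173741969, minus) and Irf7 (chr7:141266425-141266584, minus).
Isg15: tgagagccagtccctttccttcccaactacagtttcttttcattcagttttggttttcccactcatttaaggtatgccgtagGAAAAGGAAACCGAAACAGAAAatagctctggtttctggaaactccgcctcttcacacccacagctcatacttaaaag
Ifit1: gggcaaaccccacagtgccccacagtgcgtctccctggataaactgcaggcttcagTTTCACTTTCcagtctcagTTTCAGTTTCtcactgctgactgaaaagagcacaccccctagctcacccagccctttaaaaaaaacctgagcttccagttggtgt
Ifit3: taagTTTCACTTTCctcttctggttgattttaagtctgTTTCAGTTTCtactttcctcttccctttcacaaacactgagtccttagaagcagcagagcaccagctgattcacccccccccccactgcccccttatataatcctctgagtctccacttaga
Oas1a: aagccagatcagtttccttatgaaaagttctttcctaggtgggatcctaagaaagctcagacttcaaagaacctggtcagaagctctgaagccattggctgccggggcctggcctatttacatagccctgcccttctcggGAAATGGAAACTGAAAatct
Bst2: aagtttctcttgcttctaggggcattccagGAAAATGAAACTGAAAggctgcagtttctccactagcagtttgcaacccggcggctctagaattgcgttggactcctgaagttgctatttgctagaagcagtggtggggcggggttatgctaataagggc
Ifi207: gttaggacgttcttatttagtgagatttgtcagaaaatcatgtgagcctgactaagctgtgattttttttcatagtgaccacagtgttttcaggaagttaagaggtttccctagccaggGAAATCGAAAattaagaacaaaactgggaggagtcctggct
Irf7: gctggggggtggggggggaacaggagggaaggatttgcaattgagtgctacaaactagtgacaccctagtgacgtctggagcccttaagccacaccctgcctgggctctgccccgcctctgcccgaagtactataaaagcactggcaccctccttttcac

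Isg15 held 3 overlapping cores, the first beginning 78 bases before the start, and Oas1a and Bst2 held 2 overlapping cores each, beginning 20 and 130 bases before it. Ifit1 and Ifit3 held 2 separate cores each, all on the opposite strand, at 104 and 85 and at 156 and 122 bases upstream, and Ifi207 held 1 at 41 bases upstream. A second motif was TTCNNNGAA, the core of the gamma-activated site, which reads the same on both strands. It was in 8.3% of all windows, and 9.55% of the genes with a window had it. Among the members it was in Oas1a and Bst2, the match in Bst2 sharing its last bases with the first ISRE core. These matches describe letters in the window, and no binding was measured.

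All 9 genes had a lower mean in KO than in WT eyes, with log2 fold changes between -1.25 for Ifi27l2a and -0.23 for Irf7 and a median of -0.43, while 48.9% of all 15767 tested genes were lower in KO at any size and the median over all genes was 0.00. None of the 9 separated the genotypes over all libraries, and 0.0761% of tested genes had all KO values below all WT values. In a whole eye, fewer cells of a type and less RNA per cell cannot be told apart, and this holds for every level that follows.

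**Figure D1:**
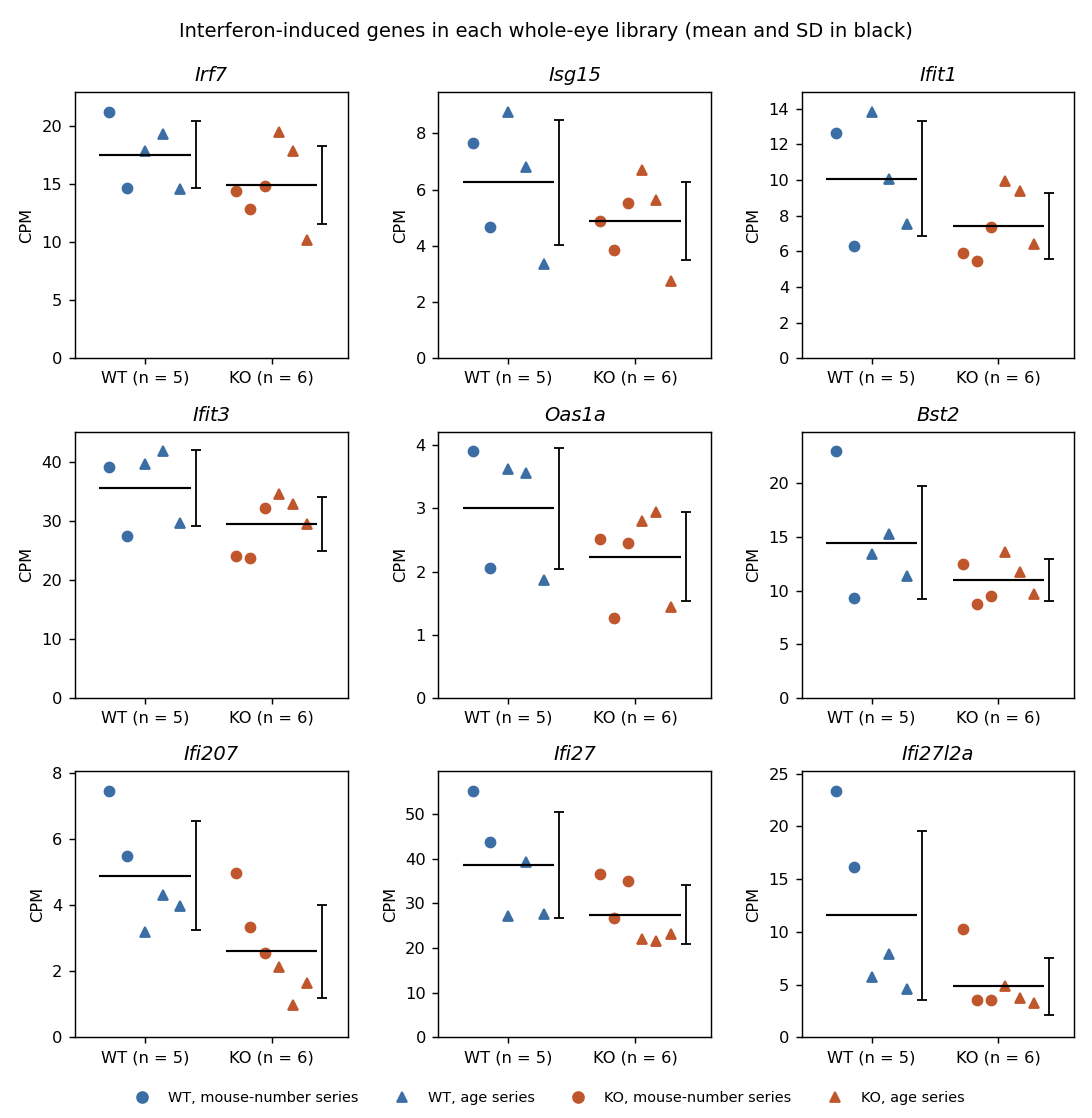
Level of each of the 9 genes in CPM (vertical axes, starting at 0) in each WT and KO library, with circles for the mouse-number series and triangles for the age series. Black lines are genotype means and error bars 1 SD, and the KO mean lies below the WT mean in all 9 panels while the points of the genotypes overlap.

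Irf7 (ENSMUSG00000025498, chr7:141262706-141266481 in GRCm38) encodes the transcription factor that amplifies interferon gene expression. Its level in the 5 WT libraries was 21.2, 14.7, 17.8, 19.3 and 14.5 CPM, and in the 6 KO libraries it ranged from 10.2 through a median of 14.6 to 19.4 CPM. The genotypes overlapped over most of the range, and KO replicate 4 was higher than every WT library but replicate 1. The means were 17.5 ± 2.9 CPM in WT (SD, n = 5) and 14.9 ± 3.34 in KO (SD, n = 6), a log2 fold change of -0.23 (SE 0.19), which was -0.14 without KO replicate 6.

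Isg15 (ENSMUSG00000035692, chr4:156199424-156200818) encodes a ubiquitin-like protein that is conjugated to other proteins during the response. It was read at 7.66, 4.67, 8.77, 6.82 and 3.36 CPM in WT replicates 1 to 5, and in KO libraries at 2.76 at the lowest, 5.2 at the median and 6.69 at the highest. Replicates 1, 3 and 4 of WT lay above every KO library, and WT replicate 5 was lower than all KO libraries but replicate 6. The log2 fold change was -0.36 (SE 0.29) and lay between -0.52 and -0.21 when any 1 library was left out, at -0.21 without WT replicate 3.

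Ifit1 (ENSMUSG00000034459, chr19:34640871-34650009) and Ifit3 (ENSMUSG00000074896, chr19:34583531-34588731) encode tetratricopeptide-repeat proteins that bind foreign RNA, and lie close to each other. Ifit1 was at 12.6, 6.27, 13.8, 10.1 and 7.54 CPM in the WT libraries and from 5.44 (median 6.9) to 9.93 CPM in KO libraries. Ifit3 was at 39.1, 27.5, 39.7, 41.8 and 29.7 CPM in WT and from 23.7 (median 30.9) to 34.6 CPM in KO. In both genes WT replicates 1, 3 and 4 were above all KO libraries, and WT replicates 2 and 5 fell among them. The log2 fold change was -0.44 (SE 0.25) for Ifit1 and -0.27 (SE 0.16) for Ifit3. Ifit3b, a near-identical neighbour with which Ifit3 shares reads, was at 15.2 ± 2.78 CPM in WT (SD, n = 5) and 12.7 ± 0.867 in KO (SD, n = 6), so the split of reads between these copies is uncertain. Without the 3 WT libraries in which Xist was read, the log2 fold change of Ifit1 was -0.14 and that of Ifit3 -0.23, and over all 9 members the median was -0.23. Irf7, Isg15, Oas1a and Bst2 were then at -0.19, -0.23, -0.32 and -0.16. Ifi207, Ifi27 and Ifi27l2a were at -0.91, -0.60 and -1.31. This fit leaves only WT replicates 2 and 4.

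Oas1a (ENSMUSG00000052776, chr5:120896256-120907521) encodes an oligoadenylate synthetase, which makes a second messenger of the antiviral response. It was low, at 3.9, 2.05, 3.63, 3.56 and 1.87 CPM in WT and from 1.26 (median 2.49) to 2.95 CPM in KO libraries. WT replicates 1, 3 and 4 again stood above every KO library. The log2 fold change was -0.43 (SE 0.30). Oas1g, a close copy, did not pass the filter and was at 0.808 ± 0.29 CPM in WT (SD, n = 5) and 0.627 ± 0.242 in KO (SD, n = 6), and reads may be split between the copies. Another relative, Oas1c, had a log2 fold change of 0.12 (SE 0.28).

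Bst2 (ENSMUSG00000046718, chr8:71534255-71537456) encodes tetherin, a membrane protein that holds budding virus particles at the cell surface. It was at 23, 9.35, 13.4, 15.3 and 11.4 CPM in WT and from 8.79 (median 10.7) to 13.6 CPM in KO libraries. WT replicate 1 lay above the other 10 libraries, and WT replicates 2, 3 and 5 fell within the KO range. The log2 fold change was -0.40 (SE 0.23), and -0.17 without WT replicate 1.

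Ifi207 (ENSMUSG00000073490, chr1:173723427-173741747) belongs to the p200 (PYHIN) family of nuclear DNA-binding proteins, whose genes lie in a cluster on chromosome 1. Its WT levels were 7.45, 5.49, 3.2, 4.32 and 3.98 CPM, and its KO levels in replicates 1 to 6 were 4.97, 3.35, 2.55, 2.12, 0.983 and 1.63 CPM. KO replicates 3 to 6 were below all WT libraries, and the overlap lay between KO replicates 1 and 2 of the mouse-number series and WT replicates of the age series. Within each series the highest KO level was below the lowest WT level. The log2 fold change was -0.91 (SE 0.38), -1.07 (SE 0.24) with the series as a covariate and -0.71 without WT replicate 1. Family members are similar in sequence, and reads that match several of them were apportioned by RSEM.

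Ifi27 (ENSMUSG00000064215, chr12:103434211-103440239) and Ifi27l2a (ENSMUSG00000079017, chr12:103442167-103443680) encode small hydrophobic membrane proteins and are neighbours on chromosome 12. Ifi27 was at 55.1, 43.8, 27.1, 39.3 and 27.5 CPM in WT replicates 1 to 5 and at 36.5, 26.7, 34.9, 22, 21.5 and 23.1 CPM in KO replicates 1 to 6. As for Ifi207, no KO library reached a WT library of its own series, and the overlap arose between series. The log2 fold change was -0.49 (SE 0.22), -0.54 (SE 0.13) with the series as a covariate and -0.33 without WT replicate 1.

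Ifi27l2a had the greatest fold change of the 9 genes over all 11 libraries, although in the age series alone it was -0.61 on the log2 scale against -1.28 for Ifi207. It was read at 23.3, 16.2, 5.74, 7.93 and 4.6 CPM in the WT libraries and at 10.2, 3.52, 3.5, 4.88, 3.74 and 3.27 CPM in the KO libraries. WT replicates 1 and 2 and KO replicate 1, all of the mouse-number series, stood above the other 8 libraries, in which WT replicate 5 and KO replicate 4 overlapped. The means were 11.6 ± 8 CPM in WT (SD, n = 5) and 4.86 ± 2.7 in KO (SD, n = 6), a log2 fold change of -1.25 (SE 0.46). Without WT replicate 1 it was -0.83, and without KO replicate 1 it was -1.62. With the series as a covariate it was -1.16. The similar gene Ifi27l2b was nearly silent, at 0.251 CPM or less in every library. Ifi27l2a is also among the genes that the study lists from these same libraries, which is not independent evidence.

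Ifi207 and Ifi27 were the members in which the genotypes did not overlap in either series, a pattern found in 0.704% of all tested genes and one that belongs to the values on which the genes were chosen. In the mouse-number series alone Ifi27l2a also separated the genotypes, which 10.7% of tested genes did there in the same direction. In the age series alone 5.98% of tested genes did so. Libraries of the same series were not alike in tissue, since WT replicate 4 differed from the rest of the age series in markers of cornea and conjunctiva.

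**Figure D2:**
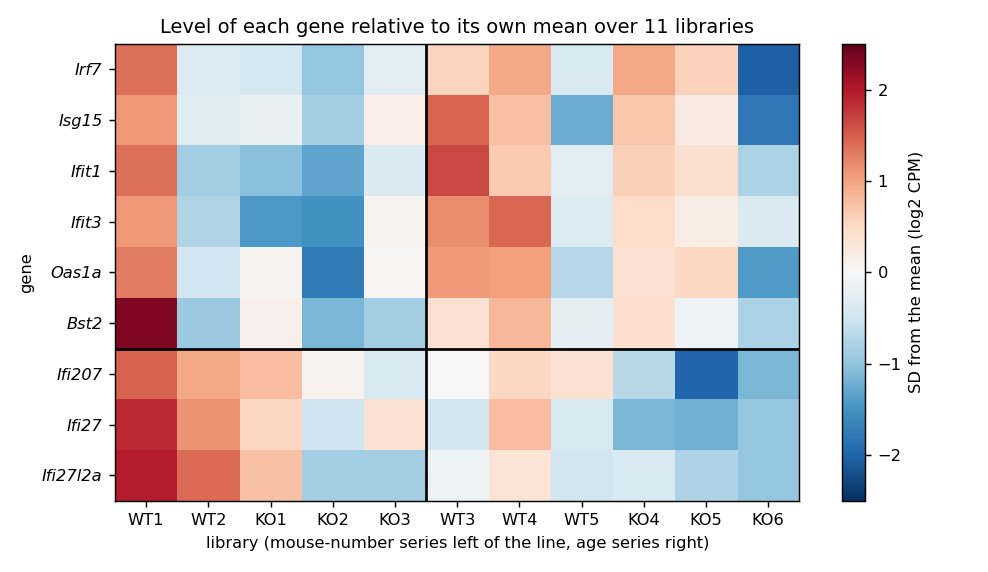
Level of each gene (rows) in each library (columns) as SD from its own mean over the 11 libraries on the log2 CPM scale, red above and blue below the mean. The upper 6 genes were above their means in WT replicates 1, 3 and 4 and KO replicate 4 and, but for Bst2, in KO replicate 5, and the lower 3 genes were above theirs in WT replicates 1, 2 and 4 and KO replicate 1.

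The 9 genes did not follow 1 common pattern across libraries. Irf7, Isg15, Ifit1, Ifit3, Oas1a and Bst2 varied together, with Pearson's r of log2 CPM between 0.67 and 0.92 over their 15 pairs (n = 11 libraries). Ifi207, Ifi27 and Ifi27l2a formed another set, with r between 0.80 and 0.86 over their 3 pairs. Across the sets r lay between -0.002 and 0.61 over 18 pairs. With the genotype means removed the ranges were 0.60 to 0.90, 0.68 to 0.79 and -0.48 to 0.47. These sets were formed after the values were seen, and all pairs come from the same 11 eyes with their genotypes and dissections, so the values are a description.

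The same sets differed in how they followed the library series. With genotype in the model, Ifi207, Ifi27 and Ifi27l2a were lower in the age than in the mouse-number series by log2 fold changes of -0.99 (SE 0.24), -0.60 (SE 0.13) and -1.07 (SE 0.35). For the other 6 genes the difference between series was between -0.02 for Bst2 and 0.32 for Ifit1. In this comparison 36.3% of all tested genes passed an adjusted p of 0.1 (edgeR likelihood-ratio test, Benjamini-Hochberg adjustment), 21.7% lower and 14.6% higher in the age series.

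Tissue composition also moved with the second set, and it differed between the series as well. In the age series all 9 tested adipocyte and all 7 muscle markers were lower at an adjusted p of 0.1 (edgeR likelihood-ratio test). All 12 microglia and macrophage markers were lower there, 6 of them at that threshold, which 21.7% of all tested genes passed as lower. The r values below hold this difference between series and are not separate from it. Between genotypes all 9 tested adipocyte markers were lower in KO, and the median of their fold changes was -1.94 on the log2 scale. An unadjusted p of 0.05 was passed by 4 and an adjusted p of 0.1 by none (edgeR likelihood-ratio test). With the series as a covariate this median was -2.38, and all 9 passed the unadjusted but none the adjusted threshold. Without WT replicate 1 their values lay between -1.44 for Plin1 and -0.41 for Retn. The summed level of 10 adipocyte markers was 57.5 to 725 CPM in WT and 55.7 to 390 CPM in KO libraries. It was highest in WT replicates 1 and 2 and KO replicate 1, the libraries in which Ifi27l2a was highest. Over the 11 libraries log2 CPM of Ifi207, Ifi27 and Ifi27l2a followed the log2 of this sum with r of 0.84, 0.87 and 0.93, whereas the other 6 genes had r between -0.03 and 0.50. The sum of 12 microglia and macrophage markers, 153 to 379 CPM in WT and 119 to 206 CPM in KO, gave r of 0.78 to 0.90 for the 3 genes and 0.14 to 0.58 for the other 6. Its markers did not vary alike outside WT replicate 1. Log2 CPM of Itgam was 5.40 to 5.86 in WT replicates 2 and 4 and KO replicates 1 to 3, and 3.56 to 4.47 in the rest. Csf1r stayed between 5.51 and 5.86, so these r do not stand for every marker of the list. Skeletal muscle markers, 7 genes with a sum of 819 to 6358 CPM in WT and 665 to 6870 CPM in KO, gave r of 0.84 for Ifi207, 0.76 for Ifi27 and 0.72 for Ifi27l2a and -0.35 to 0.21 for the other 6 genes. The muscle genes had a median log2 fold change of -0.53 (-0.18 without WT replicate 1), and all 7 were lower in KO without any passing an unadjusted p of 0.05 (edgeR likelihood-ratio test). All 10 adipocyte, all 7 muscle and all 12 microglia and macrophage markers were read in the eye. The sum of 5 genes listed as markers of plasmacytoid dendritic cells gave r of 0.77 to 0.88 for the 3 genes and -0.16 to 0.47 for the other 6. Tcf4 and Cox6a2 made up most of it. Cox6a2 was highest in WT replicates 1 and 2 and KO replicate 1, as was the muscle sum, so these r cannot be assigned to plasmacytoid dendritic cells. The sum of the rod markers ran the other way, with r of -0.80 to -0.70 for the 3 genes. The part that cell composition had in the levels of these genes was not tested, and without the 3 libraries highest in adipocyte markers the log2 fold changes were -0.83 for Ifi207, -0.28 for Ifi27 and -0.68 for Ifi27l2a. Leaving these out keeps WT libraries of the age series only, but KO libraries of both series. These values therefore mix genotype with series and cannot show the part of fat tissue. In the age series alone they were -1.28, -0.49 and -0.61.

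**Figure D3:**
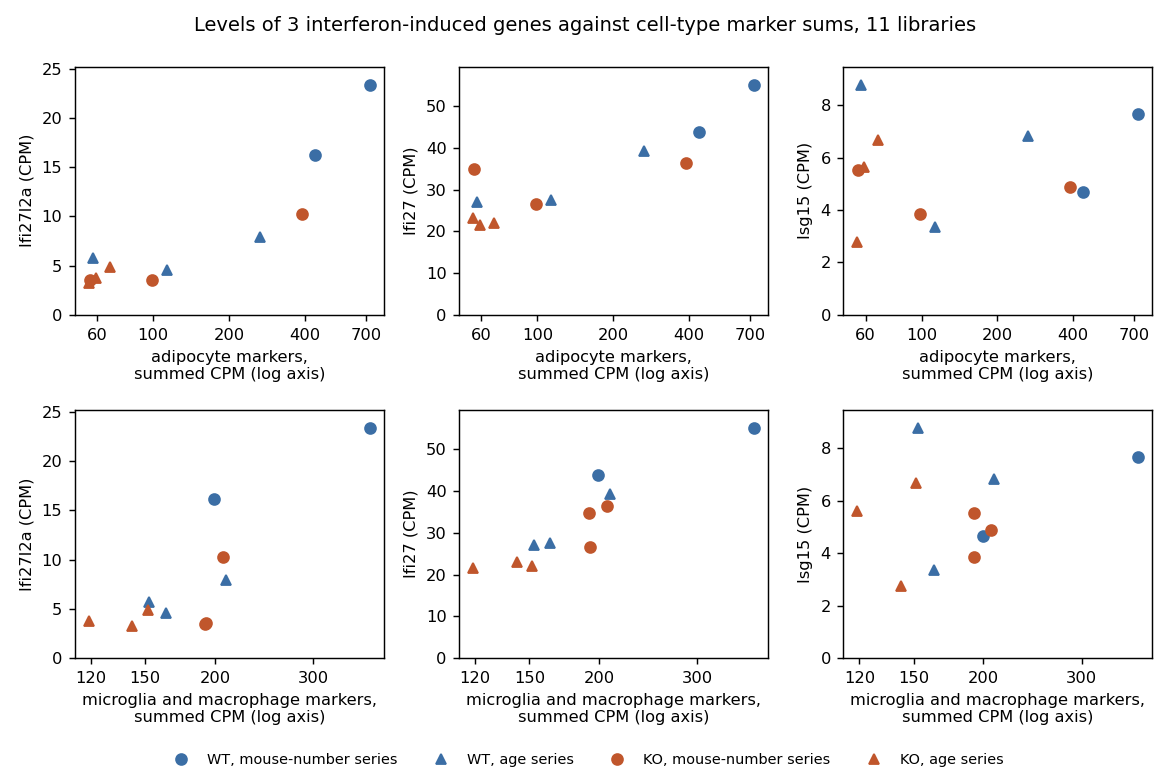
Level of Ifi27l2a, Ifi27 and Isg15 in CPM (vertical axes) against the summed CPM of adipocyte markers (upper row) and of microglia and macrophage markers (lower row) on log axes, 1 point per library. Ifi27l2a and Ifi27 are highest in WT replicate 1, which has the highest marker sums (725 and 379 CPM), while Isg15 is highest in WT replicate 3, where the adipocyte sum is 57.5 CPM.

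The microglia and macrophage markers themselves were lower in KO for 11 of 12 genes, and their log2 fold changes had a median of -0.33. Without WT replicate 1, 9 of 12 were lower and the median was -0.10. None passed an adjusted p of 0.1, and 2 of the 12, C1qb and Adgre1, passed an unadjusted p of 0.05 (edgeR likelihood-ratio test), as did 2.09% of all tested genes. This count was 0 to 4 when 1 library was left out, at 4 without WT replicate 2 and at 0 without WT replicate 1 or KO replicate 2, 4, 5 or 6. Markers of lymphocytes were scarce, with a summed level of 4.68 to 11.8 CPM over 9 genes.

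Outside the 9 genes, 116 further genes of the interferon pathway were listed and found in the files, of which 94 passed the filter. None passed an adjusted p of 0.1 between KO and WT, and 1 gene of all 15767 did (0.00634%), which was Xist (edgeR likelihood-ratio test, Benjamini-Hochberg adjustment). At an unadjusted p of 0.05, 5 of the 94 were lower in KO and 0 higher, where 1.77% of all tested genes were lower and 0.323% higher. The count of 5 was 1 without WT replicate 1 and 14 without WT replicate 5. By sign alone 74 of the 94 were lower, and their median log2 fold change was -0.15. This tilt rested on WT replicate 1, without which 52 of 93 were lower and the median was -0.01. The median of the 9 members was then -0.31, but the members were chosen with this contrast in view, so these medians are not comparable.

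**Figure D4:**
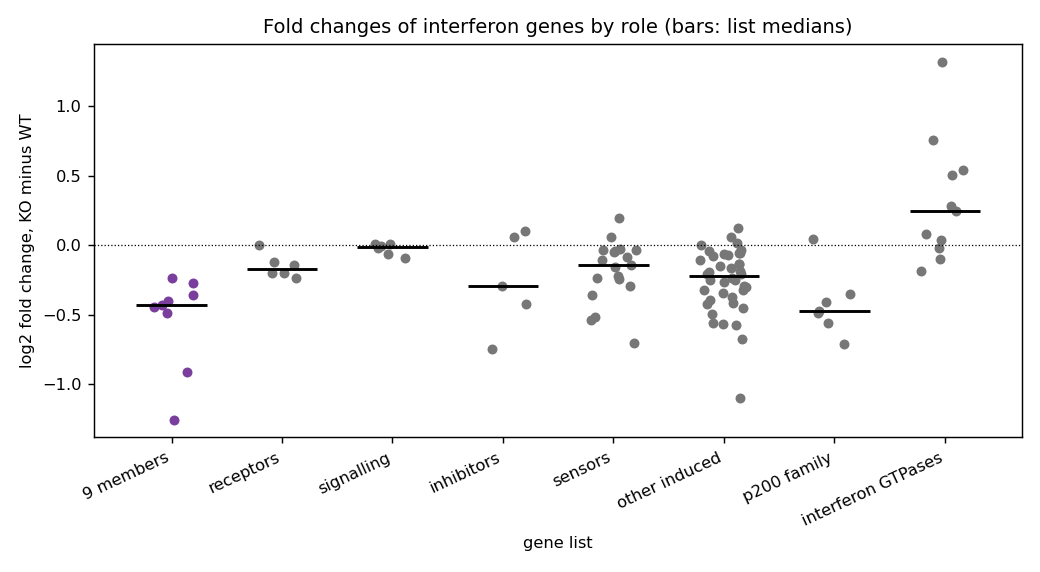
Log2 fold change of KO minus WT (vertical axis) for the 9 members (purple) and the tested genes of 7 lists of the interferon pathway (grey), 1 point per gene, with bars at the list medians. The medians run from -0.47 for the p200 family to 0.25 for the interferon-inducible GTPases (-0.40 without KO replicate 4), and that of the members is -0.43.

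The ligands were almost absent. Of 13 interferon genes listed, a part of the family, 12 were in the files. Ifna1, Ifna2, Ifna4, Ifna5, Ifna12 and Ifne had no read in any library, and the other 6 (Ifnb1, Ifna13, Ifnk, Ifng, Ifnl2 and Ifnl3) together had at most 4 read pairs in any library and 21 over all 11. Ifng had 5 read pairs over the WT libraries and 1 over the KO libraries, and a difference between genotypes in the ligands was not detectable at this depth.

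The 6 receptors had log2 fold changes between -0.23 and 0.01 in KO against WT. Ifnar1, a chain of the type I receptor, was at 57.5 ± 3.39 CPM in WT (SD, n = 5) and 57.7 ± 2.83 in KO (SD, n = 6), and its partner Ifnar2 had a log2 fold change of -0.14 (SE 0.19). Ifngr1 and Ifngr2, which bind interferon gamma, had -0.20 (SE 0.18) and -0.12 (SE 0.18). Il10rb and Ifnlr1, which form the receptor of lambda interferons, had -0.20 (SE 0.15) and -0.23 (SE 0.49), and Ifnlr1 was low, at 3.32 ± 1.86 CPM in WT (SD, n = 5) and 2.81 ± 1.53 in KO (SD, n = 6). Without WT replicate 1 the values of Ifnar2, Ifngr1, Ifngr2, Il10rb and Ifnlr1 were 0.04, -0.06, -0.01, -0.12 and -0.08. None of the 6 passed either threshold for genotype, while 5 of them, all but Ifnar1, were lower in the age series at an adjusted p of 0.1 (edgeR likelihood-ratio test).

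The signalling genes, among them Jak1, Jak2, Tyk2, Stat2 and Irf9, had the smallest differences of the lists in the fit of all libraries. Their log2 fold changes were between -0.09 for Irf9 and 0.01 for Jak2, with a median of -0.01. Among the inhibitors, Usp18, the protease that removes Isg15 from proteins, had -0.30 (SE 0.23), or -0.16 without WT replicate 4. The phosphatase Ptpn6 had -0.43 (SE 0.28), or -0.28 without WT replicate 1. Socs3 had -0.74 (SE 0.43), but it was at 25.1 CPM in WT replicate 1 and 4.97 to 6.07 CPM in the other WT libraries, and without that library the value was 0.05. None of the inhibitors passed an unadjusted p of 0.05.

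Among the 19 tested sensors and regulators of nucleic acid recognition, KO was lower for 17, and the median was -0.14 on the log2 scale. Without WT replicate 1 it was lower for 10, at a median of -0.02. Tmem173 (STING), the adaptor of the cytosolic DNA pathway, had a log2 fold change of -0.70 (SE 0.34) and an unadjusted p of 0.0403 in the edgeR likelihood-ratio test. The kinase Ikbke had -0.35 (SE 0.21) and the RNA receptor Tlr7 -0.52 (SE 0.34), which did not pass an unadjusted p of 0.05. WT replicate 1 was the highest library for Tmem173, at 8.05 CPM against 2.29 to 3.56 in the other WT libraries, and without it the fold changes of Tmem173, Ikbke and Tlr7 were -0.28, -0.21 and -0.28.

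Among the 40 other induced genes that were tested, KO was lower for 36, and the median log2 fold change was -0.22, or for 28 and -0.08 without WT replicate 1. Lgals3bp, a secreted galectin-binding protein, was at 64.7 ± 13.5 CPM in WT (SD, n = 5) and 43.6 ± 10.6 in KO (SD, n = 6), a log2 fold change of -0.57 (SE 0.19) with an unadjusted p of 0.0031 and an adjusted p of 1.00 (edgeR likelihood-ratio test). Slfn8, Ifitm3, which blocks virus entry, and Oas1b were the others with an unadjusted p under 0.05, at log2 fold changes of -0.49, -0.56 and -0.42. Ifitm3 was at 82.4 CPM in WT replicate 1 and 28.6 to 34.6 CPM in the other WT libraries, and without that library its fold change was -0.16, while that of Lgals3bp was -0.45, of Slfn8 -0.45 and of Oas1b -0.29. Ifit2, a relative of Ifit1 and Ifit3 on the same chromosome, was nearly level between genotypes, at 15.3 ± 1.53 CPM in WT and 14.6 ± 0.698 in KO (SD, n = 5 and 6).

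KO was lower for 6 of the 7 tested relatives of Ifi207, at a median of -0.47 on the log2 scale, but none passed an unadjusted p of 0.05. Mndal had a log2 fold change of -0.47 (SE 0.28), Ifi203 -0.35 (SE 0.22), Ifi211 -0.71 (SE 0.49) and Ifi204 -0.49 (SE 0.45). Without WT replicate 1 these were -0.27, -0.25, -0.43 and -0.15, the median over the family was -0.20, and 4 of the 6 then tested were lower. The difference between series was wider in this family, with 6 of the 7 lower in the age series at an adjusted p of 0.1 and a median of -1.21 (edgeR likelihood-ratio test). Over the whole pathway 42 of the 94 genes were lower and 5 higher in the age series.

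The interferon-inducible GTPases, which attack vacuoles that hold pathogens and respond strongly to interferon gamma, went the other way from the 9 genes in the fit of all libraries. Of 11 tested, 8 had a higher mean in KO, with a median of 0.25, and without KO replicate 4 all 11 were lower in KO, with a median of -0.40. Their summed level was 293.6 CPM in that library, 65.6 to 89 CPM in the other KO libraries and 76.4 to 127 CPM in WT. In KO replicate 4, 11 of 12 GTPase genes were higher than in any other library, and 10 of 12 were over 2 times the median of the other libraries. Tgtp1 was at 32 CPM against at most 4.79 in the others, Iigp1 at 27.1 against at most 6.82, and Gbp4 at 24.8 against at most 4.75. The 9 genes were not raised to this extent in the same library, where they stood at 0.577 (Ifi207) to 1.33 (Ifit1) times the median of the other 10. Ifng had no read there.

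**Figure D5:**
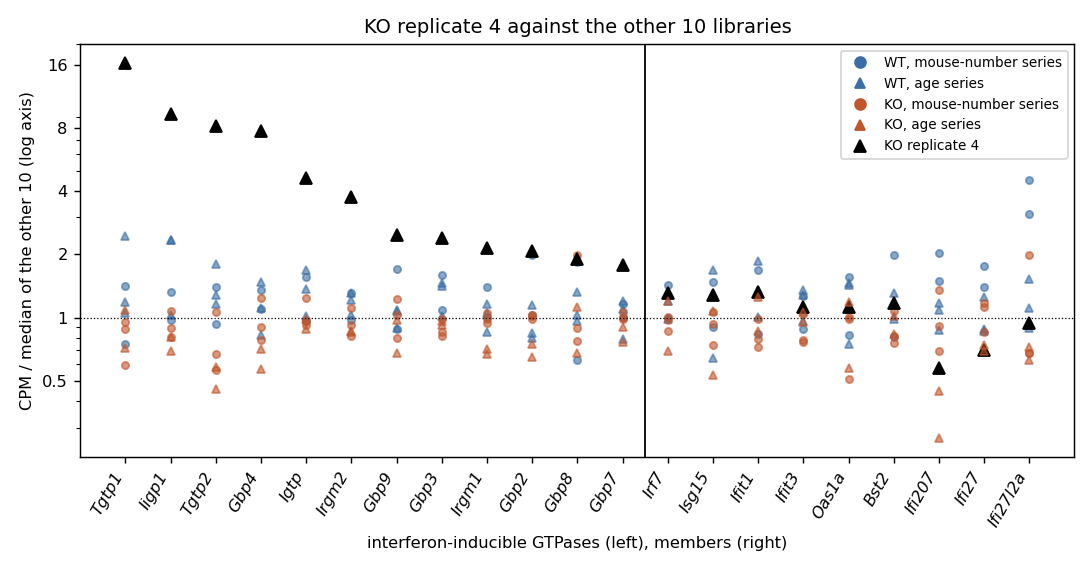
CPM of each gene in each library divided by the median of the 10 libraries other than KO replicate 4 (log axis), for 12 interferon-inducible GTPases (left) and the 9 members (right). KO replicate 4, in black, is the highest library for 11 of the 12 GTPases and reaches 16.3 times that median for Tgtp1, but lies between 0.577 and 1.33 times it for the members.

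GAAA-N2-GAAA cores were in the promoter windows of all 9 GTPase genes that have one and of 7 of 9 p200 genes, against 13 of 34 other induced genes and 0 of 5 receptors. They were in 6 of 13 ligands, 4 of 16 sensors and 3.99% of all genes with a window. The TTCNNNGAA core was in 6 of these 9 GTPase windows. It was also in 6 of 13 ligands, 2 of 5 receptors, 4 of 16 sensors, 6 of 34 other induced genes, 1 of 9 p200 genes and 9.55% of all genes with a window.

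Among the 10 tested genes whose pattern over the 11 libraries was most like the mean of the 9 genes (Pearson's r of log2 CPM with their mean z-score, given without a test) were Yjefn3 (0.94), Sp100 (0.92), Adamts10 (0.92), Csf2rb, Trim30d, Samd1, Rac2 and Rsad2 (each 0.91) and Trim30a (0.90). Sp100, Rsad2 and Trim30a were on the list of other induced genes. Each of the genes named had a lower mean in KO than in WT, and they were chosen from all tested genes by this likeness.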

How the data were processed

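RNA from 11 whole eyes was sequenced in 100-nt read pairs. The authors ran RSEM 1.2.19 on the Gencode M4 mouse annotation and deposited, per gene and library, expected counts (estimated read pairs, not normalized) and FPKM values (scaled by effective length and library). Here expected counts were rounded, genes under 1 CPM in more than 6 of the 11 libraries were dropped, and TMM-normalized counts were fitted in edgeR 4.0.16 (R 4.3.3, glmFit and glmLRT, Benjamini-Hochberg adjustment, threshold 0.1), with genotype as the only term. FPKM served only to compare levels between genes. CPM use TMM-scaled library sizes, and log2 CPM add a prior count of 2. At the lowest total, 1 CPM is about 20.3 read pairs. Replicates were separate animals. Symbols came from Gencode M21 (95.4% of identifiers matched), promoter windows from RefSeq (GRCm38.p6). RSEM shares reads between similar genes by estimate, so copies such as Ifit3 and Ifit3b are known with less certainty. Library series were read from column names of a supplementary table, to which libraries were matched by their counts over 63 genes (coefficient of variation at most 0.193% for the match, at least 24.5% for the next). The likelihood-ratio test was tested on simulated data. The members, lists and motifs were chosen with earlier results of these data known. Genes named beside the members are those with the 3 smallest unadjusted p-values in a list, receptors, signalling genes, ligands, close relatives and the 10 most alike genes. Some genes of these lists are not reported here.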

Additional observations from a re-analysis of the deposited data

Results flagged for a closer look

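Outliers within a genotype were searched by Dixon's ratio (the gap between the extreme library and its nearest neighbour over the range of the group) on the log2 CPM scale in 40 groups of 5 or 6 libraries, covering the 9 genes and 11 summed lists (the 8 of the pathway and the adipocyte, microglia and endothelial markers), and 3 passed Dixon's critical value. Chance alone passes about 1 group in 20. Ifi27l2a in KO replicate 1 (10.2 CPM, the other KO libraries at most 4.88) had a ratio of 0.652. The summed adipocyte markers were also high in KO replicate 1 (390 CPM, the other KO libraries at most 98.5), with a ratio of 0.708. The part of fat tissue in the Ifi27l2a value of that library was not tested. The summed interferon-inducible GTPases were high in KO replicate 4 (293.6 CPM, the other KO libraries at most 89), with a ratio of 0.797, and the interferon-induced genes described above were not outliers in that library.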

How the results depend on the processing

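The log2 fold changes of the 9 genes were recomputed under 24 alternatives each, and all 216 values were negative. They differed from the reported ones by less than the pooled SD of the gene's log2 CPM within genotypes. This SD is wider than the SE of the fold change. The genes were chosen with these differences in view, and alternatives such as another test or rounding can hardly move a fold change. The shared sign is therefore not independent support. The median of the 9 genes, -0.43, ranged from -0.53 to -0.31 when 1 library was left out. It was -0.42 with the library series as covariate, -0.60 in the mouse-number series alone and -0.33 in the age series alone. It was -0.23 without the 3 WT libraries with Xist and -0.36 without the 3 libraries highest in adipocyte markers. Both of these last alternatives were chosen after seeing the data. The first leaves WT replicates 2 and 4 only, and the second leaves WT libraries of the age series only. None of the 94 pathway genes passed the adjusted threshold under any alternative run, and between 39 and 50 passed it between series (47 as reported). Counts of calls were less stable. The number of genes called over the whole table was 1 as reported, 0 with edgeR's quasi-likelihood test, 2 with DESeq2, 2 with at least 1 count in any library as the filter, 10 with the replicate block, 10 with the library series as covariate, 2 in the mouse-number series alone, 36 in the age series alone and 3 without the WT libraries with Xist. It ranged from 1 to 11 with 1 library left out, at 11 without KO replicate 1 and 2 without WT replicate 2. Pathway genes at an unadjusted p of 0.05 numbered 5 as reported, 2 without TMM factors, 19 with the series as covariate, 12 in the mouse-number series, 3 in the age series, 2 without the WT libraries with Xist, 1 without the libraries highest in adipocyte markers, and 1 to 14 with 1 library left out (1 without WT replicate 1, 2 without WT replicate 4, KO replicate 5 or KO replicate 6, 3 without KO replicate 2, 9 without WT replicate 2, 12 without KO replicate 4 and 14 without WT replicate 5). Microglia and macrophage markers at an unadjusted p of 0.05 numbered 2 as reported, 1 with the quasi-likelihood test, 0 without TMM factors, 7 with the series as covariate, 0 without the WT libraries with Xist, 0 without the libraries highest in adipocyte markers and 0 to 4 with 1 library left out (4 without WT replicate 2, 1 without KO replicate 3, and 0 without WT replicate 1 or KO replicate 2, 4, 5 or 6), and 1 of them passed the adjusted threshold in the age series alone. The cause of these shifts was not tested.

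WT and KO libraries share replicate numbers, but the correlation of deviations between same-numbered libraries ran from -0.33 to 0.63 over 5 pairs, and 3 of 5 WT libraries correlated best with their own number, so the numbers were not taken as pairs. With the replicate number as a block, which leaves out KO replicate 6, the median log2 fold change of the members was -0.32. Genes near 1 CPM, such as Ifi207 and Oas1a, rest on few read pairs per library.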

Other observations

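Cell types that make or meet interferon were followed by their markers as well. Siglech, a receptor of plasmacytoid dendritic cells and microglia, was at 2.06 ± 0.48 CPM in WT (SD, n = 5) and 2.11 ± 0.113 in KO (SD, n = 6), and Ccr9 was below 1.07 CPM in every library. Klk1, another marker of plasmacytoid dendritic cells, was at 0.05 CPM or less in every library. The other genes of that list, Tcf4 and Cox6a2, had log2 fold changes of 0.04 (SE 0.10) and -0.71 (SE 0.59), and Cox6a2 ranged from 13.2 to 144 CPM and had -0.25 without WT replicate 1. Ptprc (CD45), which marks leukocytes, was at 5.58 ± 2 CPM in WT (SD, n = 5) and 3.72 ± 0.902 in KO (SD, n = 6), a log2 fold change of -0.59 (SE 0.26) with an unadjusted p of 0.0255 and an adjusted p of 1.00 (edgeR likelihood-ratio test), or -0.34 without WT replicate 1. Of 7 endothelial markers, 6 were lower in KO and none passed an unadjusted p of 0.05. Pecam1 and Cdh5 had log2 fold changes of -0.41 (SE 0.24) and -0.33 (SE 0.24), and Kdr went the other way, at 0.21 (SE 0.20). Without WT replicate 1 these were -0.26, -0.18 and 0.36.

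Over the 11 libraries the summed lymphocyte and leukocyte markers followed both sets of interferon-induced genes to a similar extent, with r of 0.53 to 0.73 for Irf7, Isg15, Ifit1, Ifit3, Oas1a and Bst2 and 0.57 to 0.67 for Ifi207, Ifi27 and Ifi27l2a. Ptprc, which marks leukocytes in general, was the most abundant of these markers in every library and the only one past the filter. These r therefore do not stand for lymphocytes alone. The summed endothelial markers had r of 0.39 to 0.59 with the first set and 0.11 to 0.49 with the second. Kdr, the endothelial marker that was higher in KO, was the most abundant of them in every library. The sum therefore follows Kdr most, and these r do not stand for the other endothelial markers. These values are descriptions of 11 libraries that share dissection and genotype, and were not tested.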
